A study of Mus musculus with 22 samples.

Results

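The canonical Notch targets of the Hes and Hey families, together with the feedback regulators Nrarp and Dtx1, were followed in mouse fetal liver haematopoietic stem cells in which gamma-secretase was blocked. The 8 genes, Hes1, Hes5, Hes6, Hey1, Hey2, Heyl, Nrarp and Dtx1, were taken by name as canonical Notch targets, by a rule that uses no measured value. All 8 were measured, out of 22180 genes in all. Cells of wild-type C57Bl/6J embryos (E14.5 livers) were cultured on OP9-DL1, a mouse bone marrow stromal line that carries the Notch ligand Dll1, and stem cells were sorted as SLAM LSK cells after the culture. The groups were 1 µM gamma-secretase inhibitor (GSI) for 4 h (n = 7) and DMSO for 4 h (n = 7), and GSI for 10 h (n = 4) and DMSO for 10 h (n = 4), with 1 array for each sample. GSI and DMSO samples of a replicate form a pair, so there were 7 pairs for 4 h and 4 for 10 h. All groups shared the stroma and its ligand, so DMSO is the Notch-stimulated condition, and no culture without ligand was analysed here.

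Gamma-secretase cuts a Notch receptor once it has bound its ligand and so releases the intracellular domain. That domain enters the nucleus, joins the DNA-binding protein Rbpj and a Mastermind coactivator, and switches on target genes. Hes and Hey proteins are basic helix-loop-helix repressors, many of which recruit Groucho corepressors. Nrarp and Dtx1 act back on the receptor's intracellular domain. In blood, Notch signalling is known for the emergence of stem cells in the embryo and for the choice of the T-cell lineage.

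Rbpj binds DNA at sites built around the letters TGGGAA. These letters were searched on both strands of RefSeq promoter windows (assembly GRCm38.p6, 250 bases before to 50 bases after each gene start). Windows were at hand for 5 of the 8 genes, namely Hes5, Hes6, Hey2, Nrarp and Dtx1. Hes5 and Hey2 each held the letters at 2 places. They are shown because Rbpj, the DNA-binding protein of the blocked pathway, is known to bind sites built around such letters. Whether it binds at these places was not tested. Capitals mark the letters, read on the gene's strand, and TTCCCA is the same motif on the opposite strand.
Hes5, chr4:154960829-154960858, plus strand: ggccgccgagtgTGGGAAcggccgcggcgc
Hes5, chr4:154960685-154960714, plus strand: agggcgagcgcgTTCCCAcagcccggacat
Hey2, chr10:30842769-30842798, minus strand: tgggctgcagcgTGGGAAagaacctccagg
Hey2, chr10:30842973-30843002, minus strand: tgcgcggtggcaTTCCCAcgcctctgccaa
In Hes5 the first letter of the motif lay at positions -82 and -226 from the start base, counted as 0. In Hey2 it lay at -3, so that the motif spanned the start, and at -207. The letters were not in the windows of Hes6, Nrarp and Dtx1. Of all 32851 promoter windows 25.6% held TGGGAA on either strand, so a match alone is common. The longer form GTGGGAA was in 6.38% of them.

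The values were log2 expression values normalized by the authors, and the number of arrays limits their precision. Array medians lay between 4.45 and 4.52 at 10 h and between 5.03 and 5.12 at 4 h. By a code in each sample's description, whose meaning was not stated, the arrays fell into 5 runs. At 4 h, run 1 held pair 1, run 2 held pairs 2 and 3, and run 3 held the other 4. At 10 h, run 4 held pairs 1 and 2, and run 5 held pairs 3 and 4. No run held both times, so time, run and normalization cannot be told apart. Among markers of the sort, Kit averaged 10.0 in GSI and 9.97 in DMSO at 4 h, and 9.30 in GSI and 9.14 in DMSO at 10 h. Slamf1, which encodes the SLAM marker CD150, averaged 4.01 in GSI and 3.98 in DMSO at 4 h, below the array medians, and 4.97 in GSI and 4.74 in DMSO at 10 h. Cd48, which marks cells outside the SLAM gate, averaged 5.14 in GSI and 5.24 in DMSO at 4 h. At 10 h it averaged 6.67 in GSI and 6.53 in DMSO, above the array medians. Of further stem cell markers, Procr averaged 9.27 in GSI and 9.18 in DMSO at 4 h, and 6.87 and 6.92 at 10 h. Cd34 averaged 10.8 in both at 4 h, and 10.4 in GSI and 9.94 in DMSO at 10 h. Ly6a was not analysed here. The mean of 8 endothelial markers was 7.48 to 10.2 in GSI and 7.33 to 10.3 in DMSO at 4 h, and 5.12 to 6.95 in GSI and 5.36 to 7.32 in DMSO at 10 h. All 8 were above the array median on each 4 h array. Markers of other cells were read at 4 h as well, with list means of 6.58 to 9.13 in GSI and 6.12 to 9.32 in DMSO for 7 hepatocyte genes, 6.00 to 7.12 in GSI and 6.17 to 7.45 in DMSO for 12 stromal genes, and 5.67 to 7.37 in GSI and 5.70 to 7.30 in DMSO for 8 macrophage genes. Alb, which encodes albumin, had a median of 9.12 in GSI and 8.83 in DMSO at 4 h. Below the array median at 4 h were at most 2 of the 7 hepatocyte and 3 of the 8 macrophage genes on any array. Of the 12 stromal genes it was at most 4 in GSI and 3 in DMSO. Most markers of the 4 other cell types thus read above the array median beside the sorted label. Which cells gave these signals was not tested. In bulk samples fewer cells of a type and less RNA per cell cannot be told apart.

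Hes1 was the gene of the 8 that fell when gamma-secretase was blocked for 4 h. Its protein represses differentiation genes and also its own promoter. Hes1 had a log2 level of 6.20 at lowest, 7.13 at the median and 9.01 at highest in the 7 GSI samples, against 7.49, 8.30 and 9.76 in the 7 DMSO samples. The groups overlapped, and cultures differed from each other by more than GSI differed from DMSO within them. Within pairs the GSI sample was lower in 7 of 7. The differences of GSI minus DMSO in pairs 1 to 7 were -1.29, -1.01, -1.31, -0.95, -0.71, -0.75 and -0.78. Hes1 averaged 7.44 ± 0.904 in GSI and 8.42 ± 0.713 in DMSO (SD, n = 7 each), a log2 difference of -0.97 ± 0.0884 (SE, 95% interval -1.16 to -0.78, limma adjusted p = 0.00020). This corresponds to 1.96-fold. The 1 of 8 members that passed was also the only one of 22180 genes, so that 0.00451% of all genes were called. By unadjusted p, 934 genes had values under 0.05.

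At 10 h Hes1 was again the only member to fall, and the GSI and DMSO samples no longer overlapped. Its log2 level was 5.25, 5.33, 5.27 and 5.21 in the GSI samples of pairs 1 to 4, against 6.61, 6.54, 6.79 and 6.56 in their DMSO partners. Every GSI sample was thus lower than every DMSO sample. The differences within pairs were -1.36, -1.21, -1.52 and -1.34. Hes1 averaged 5.27 ± 0.050 in GSI and 6.62 ± 0.113 in DMSO (SD, n = 4 each), a difference of -1.36 ± 0.117 (SE, 95% interval -1.60 to -1.11, limma adjusted p = 4.7e-05). The fall was 2.56-fold and ranked second by p among all genes. Of all genes 0.667% were called at 10 h, 123 higher and 25 lower, and the median of all genes was -0.01.

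**Figure D1:**
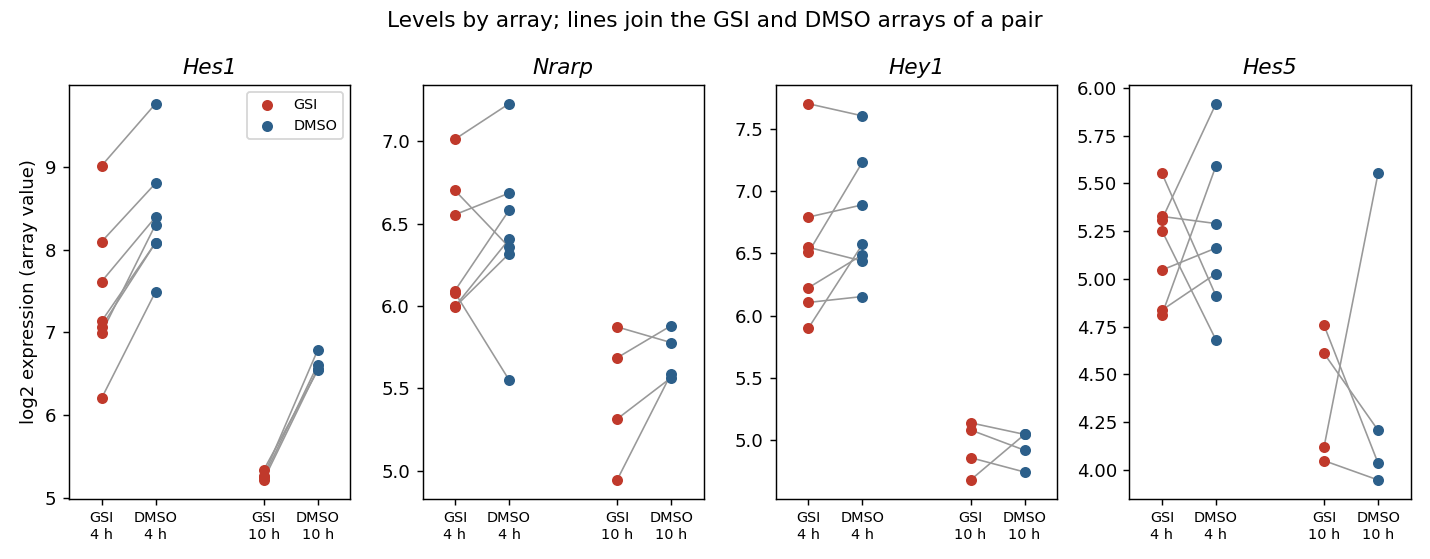
Log2 array values of Hes1, Nrarp, Hey1 and Hes5 by group, each point 1 array and each grey line 1 pair, with GSI in red and DMSO in blue. Lines for Hes1 rise toward DMSO in 7 of 7 pairs at 4 h and 4 of 4 at 10 h, while lines for the other 3 genes run both ways.

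Over both times together Hes1 changed by -1.16 ± 0.0733 (SE, limma adjusted p = 9.9e-07), the smallest p of all genes. It was the 1 member of 8 past the threshold, where 0.320% of all genes passed. The effect was -1.36 at 10 h and -0.97 at 4 h, and this difference of -0.38 ± 0.147 did not pass over all genes (limma adjusted p = 0.452). None of the 8 members passed for the difference between times, and 0.0180% of all genes did. Within runs the effect on Hes1 was -1.28 in run 4 and -1.43 in run 5 at 10 h, and -1.29 in run 1, -1.16 in run 2 and -0.80 in run 3 at 4 h. Run 1 holds 1 pair and allows no test. With 2 pairs each, run 4 alone gave a limma adjusted p of 0.618 and run 5 alone 0.0436. Without the pairing, the value was the same but the adjusted p was 0.773 at 10 h and 0.99995 at 4 h, and no member passed.

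The feedback regulators did not share the fall of Hes1. Nrarp, an ankyrin repeat protein that binds the Notch intracellular domain and limits its signal, had log2 levels of 5.99, 6.09 and 7.01 (lowest, median, highest) in GSI at 4 h, against 5.55, 6.40 and 7.23 in DMSO. At 10 h Nrarp read 5.87, 5.68, 5.31 and 4.94 in the GSI samples of pairs 1 to 4, against 5.78, 5.88, 5.56 and 5.59 in DMSO. The groups overlapped at both times, with GSI the lower in 5 of 7 pairs at 4 h and in 3 of 4 at 10 h. The difference in Nrarp was -0.10 at 4 h (95% interval -0.36 to 0.16) and -0.25 at 10 h (-0.60 to 0.10), with limma adjusted p of 0.999 and 0.521. Its 10 h interval reaches a decrease of 0.60 but not the -1.11 that bounds the fall of Hes1.

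Dtx1 encodes a Deltex E3 ubiquitin ligase that binds the Notch intracellular domain. Its log2 level in 4 h samples was 4.95, 5.22 and 5.53 (lowest, median, highest) in GSI and 4.97, 5.07 and 5.29 in DMSO. At 10 h it was 4.81, 4.70, 4.29 and 4.69 in GSI and 4.62, 4.49, 4.38 and 4.78 in DMSO. The groups overlapped at both times. Dtx1 differed by 0.10 at 4 h (95% interval -0.07 to 0.27) and by 0.05 at 10 h (-0.17 to 0.28). A second Dtx1 probe gave -0.03 and 0.05. GSI was lower in 3 of 7 pairs and in 2 of 4 pairs, so neither time showed a direction.

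Among the other Hes genes, Hes5 is a Notch target best known from neural progenitors, and Hes6 is known to counteract Hes1. Hes5 had log2 levels of 4.81, 5.25 and 5.55 in GSI at 4 h, against 4.68, 5.16 and 5.92 in DMSO. At 10 h Hes5 read 4.61, 4.76, 4.05 and 4.12 in the GSI samples of pairs 1 to 4, against 4.21, 4.03, 3.95 and 5.55 in DMSO. The DMSO sample of pair 4 stood above all other 10 h samples. The Hes5 difference was -0.06 at 4 h (95% interval -0.51 to 0.39) and -0.05 at 10 h (-0.65 to 0.54), the widest intervals of the 8 members. Without pair 4 the 10 h difference was 0.41. Its second probe gave 0.05 and 0.21, and on that probe it was the GSI sample of pair 4 that stood high, at 5.23 against 4.38 in DMSO. Both probes of Hes5 therefore gave no steady direction. Hes6 ran from 5.29 to 6.13 in GSI and from 5.38 to 5.86 in DMSO at 4 h, and from 5.32 to 5.60 in GSI and from 5.20 to 5.46 in DMSO at 10 h. Its differences of 0.02 (95% interval -0.17 to 0.22) and 0.08 (-0.18 to 0.34) did not pass.

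The Hey genes are known from vessels and the heart, where Hey1 and Hey2 repress in endothelial and cardiac cells, and Heyl from vascular smooth muscle. Hey1 had the smallest unadjusted p of the 7 genes other than Hes1 at 4 h, with log2 levels of 5.90, 6.51 and 7.70 in GSI and 6.15, 6.57 and 7.61 in DMSO. GSI was lower in 5 of 7 pairs, but the size ran from -0.73 in pair 5 to 0.11 in pair 4. The difference in Hey1 was -0.23 ± 0.113 (SE, 95% interval -0.47 to 0.01, limma adjusted p = 0.999). At 10 h Hey1 was 5.14, 4.68, 4.86 and 5.08 in GSI and 5.04, 5.04, 4.74 and 4.92 in DMSO, a difference of 0.0014 (95% interval -0.32 to 0.32). Pair 2 alone was lower in GSI. No decrease of Hey1 was thus resolved at either time.

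Hey2 had the lowest mean probe value of the 8 genes, 4.32, under the median of 5.20 over all genes. It differed by 0.0017 at 4 h (95% interval -0.19 to 0.20) and by -0.12 at 10 h (-0.38 to 0.14). Its 10 h levels were 4.10, 4.16, 4.02 and 4.35 in GSI and 4.36, 4.27, 4.31 and 4.15 in DMSO, with GSI lower in 3 of 4 pairs. Heyl differed by -0.15 at 4 h (95% interval -0.36 to 0.06), where GSI was lower in 5 of 7 pairs, and by 0.07 at 10 h (-0.20 to 0.35). Heyl levels were 4.77, 5.12 and 5.36 in GSI and 4.87, 5.21 and 5.84 in DMSO at 4 h. Groups of both genes overlapped at both times.

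**Figure D2:**
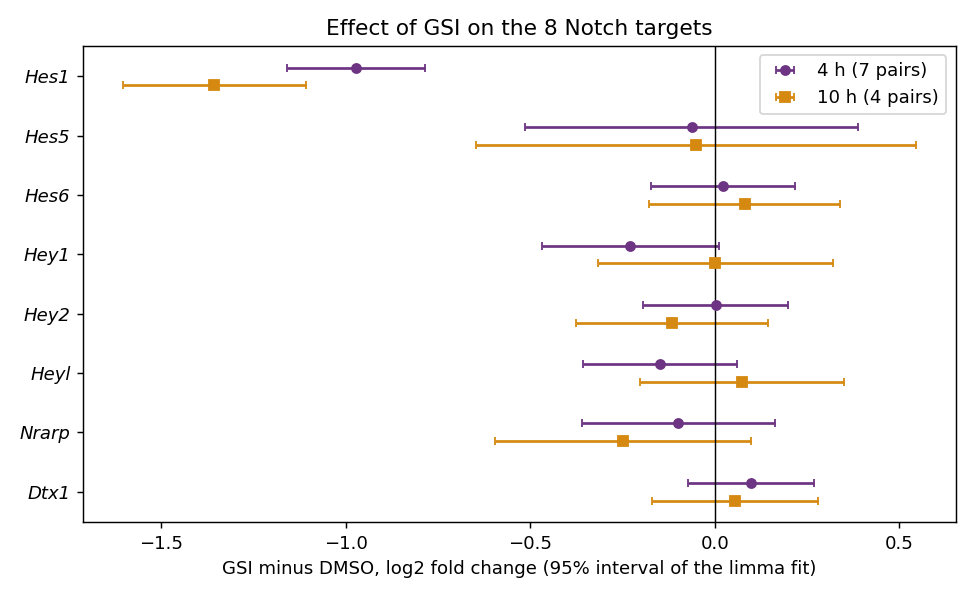
GSI minus DMSO as log2 fold change for each gene, with the 95% interval of the limma fit, at 4 h (purple circles, 7 pairs) and 10 h (orange squares, 4 pairs). Hes1 lies at -0.97 and -1.36 with both intervals below 0, while the intervals of the other 7 genes all cross 0.

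Across the 7 genes other than Hes1, the differences lay between -0.23 and 0.10 at 4 h and between -0.25 and 0.08 at 10 h. Their medians were -0.06 and 0.0014, beside medians over all genes of 0.01 and -0.01. The lowest bound of any of their 95% intervals was -0.51 at 4 h and -0.65 at 10 h. Both lie above the upper bounds of Hes1, -0.78 and -1.11. A decrease of the size seen for Hes1 was therefore outside the interval of each of the 7, whereas smaller changes could not be resolved. Of these genes Hes5, Hey2, Heyl and Dtx1 had mean probe values below the median gene, and no limit for signal above background was available. A probe near background may not register a fall in its transcript. For Hes5, Hey2, Heyl and Dtx1 the intervals therefore cannot exclude one.

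**Figure D3:**
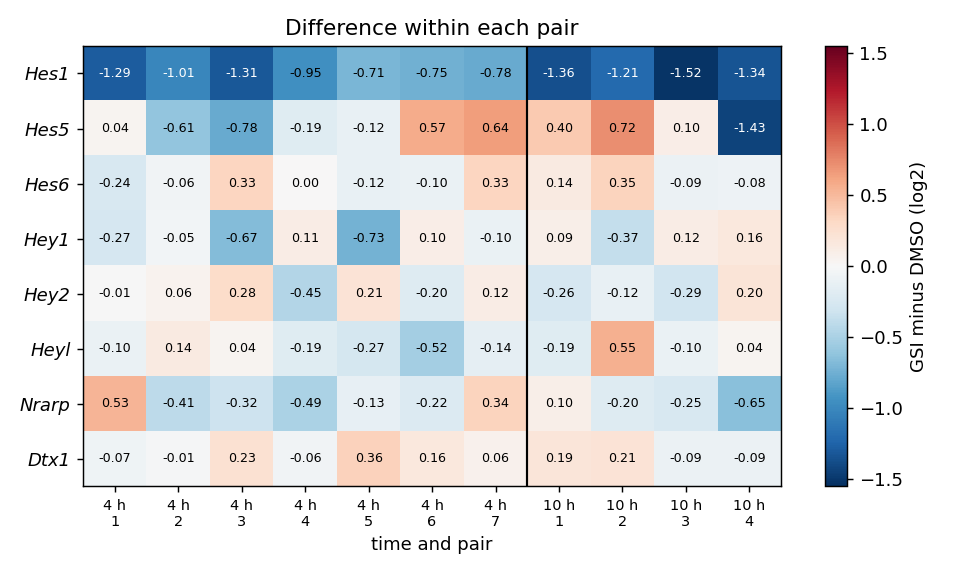
GSI minus DMSO on the log2 scale in each of the 7 pairs at 4 h and 4 pairs at 10 h, with blue for lower in GSI and red for higher. The Hes1 row is negative in 11 of 11 pairs, and no other row keeps 1 sign throughout.

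Related genes of the pathway were examined as groups, with the number that passed at an adjusted p under 0.05. None of the 6 other Hes and Hey family genes (Hes2, Hes3, Hes7, Helt, Bhlhe40, Bhlhe41) passed at either time. Their differences lay between -0.10 and 0.05 at 4 h and between -0.16 and 0.11 at 10 h. Hes2 was at -0.16 and Bhlhe41, a circadian repressor, at 0.08 at 10 h. None of 3 further Deltex genes passed, with Dtx4 at -0.28 (limma adjusted p = 0.339) and Dtx3 at -0.20 at 10 h. None of 6 Groucho corepressors passed, with Tle4 at 0.43 (adjusted p = 0.158, higher in 4 of 4 pairs) and Tle3 at 0.21. Family and partners of Hes1 therefore showed no member past the threshold.

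The receptors and their nuclear complex showed no called gene among 12 measured of 14. At 10 h their median difference was 0.11, with 10 of 12 above 0, beside the median of -0.01 over all genes. Rbpj was at 0.22 (limma adjusted p = 0.410) and Maml3, a Mastermind coactivator, at 0.22 (adjusted p = 0.441). Of 15 other genes reported as Notch targets 14 were measured, and none passed at either time. Their median was -0.01 at 4 h and -0.04 at 10 h. Skp2, part of a ubiquitin ligase that removes cell cycle inhibitors, was at 0.38 at 10 h (adjusted p = 0.0675), and Ccnd1, which encodes cyclin D1, was at 0.59 (adjusted p = 0.107). Dll4, a Notch ligand gene singled out after its values were seen, was at -0.45 at 4 h (adjusted p = 0.420, lower in 7 of 7 pairs) and at -0.30 at 10 h (adjusted p = 0.296, lower in 4 of 4 pairs). Skp2 and Ccnd1 thus had the opposite sign to that of Hes1 at 10 h, and Dll4 had the same sign, with none of the 3 past the threshold.

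Of 10 genes reported elsewhere as repressed by Hes1, 8 were measured. None passed at 4 h and 1 rose at 10 h, with medians of 0.06 and -0.02. The gene was Flt3, a cytokine receptor of early progenitors, which was 1.28 ± 0.170 higher (SE, limma adjusted p = 0.0037) and higher in 4 of 4 pairs. It was at 0.40 at 4 h (adjusted p = 0.999). Its difference between times was not called (adjusted p = 0.334), and its 10 h call was lost when that time or its runs were fitted alone and without the pairing. At 10 h, 4 of the 8 differences were above 0 and 4 below, and that of Flt3 alone passed. Neurog3, with the next smallest p, was at -0.18 (limma adjusted p = 0.530).

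The likeness of other genes to Hes1 was measured as the cosine of the 11 pair differences, where 1 means the same proportions in the same pairs. The most alike were Pcdhb10 (0.911), Scarletltr (0.905), Mir200a (0.903), Itgal (0.893) and Olfr1090 (0.892). Of these Itgal, which encodes an integrin subunit of leukocytes, fell by 1.04 at 10 h (limma adjusted p = 0.0017, kept in 18 of 22 alternative fits), and Mir200a fell by 0.42 (adjusted p = 0.0398), a call that remained in 6 of 21 alternative fits. The most opposed were Slc7a8 (-0.931), Il12a (-0.931), Kcnk5 (-0.918), D430020J02Rik (-0.912) and Rnf19b (-0.910). Il12a, which encodes the p35 chain of interleukin-12, rose by 1.19 (adjusted p = 0.00015, kept in 19 of 22 alternative fits), Kcnk5, a potassium channel gene, by 1.18 (adjusted p = 0.0037, kept in 18 of 22), and Rnf19b by 1.23 (adjusted p = 0.0231, kept in 14 of 22 alternative fits) at 10 h. The calls of Itgal, Il12a, Kcnk5 and Rnf19b were all lost without the pairing, with 10 h fitted alone and in run 4 alone. Within the 8 members, the cosine with Hes1 was 0.422 for Nrarp, 0.376 for Hey1 and between -0.38 and 0.20 for the rest. The gene most like each other member was Olfr282 for Hes5 (0.941), 4933404K08Rik for Hes6 (0.892), A830082N09Rik for Hey1 (0.856), Ank1 for Hey2 (0.882), Crnn for Heyl (0.925), 4933427D06Rik for Nrarp (0.944) and Gm973 for Dtx1 (0.878). The cosine leaves out the size of a difference, and Pcdhb10 was at -0.09 at 4 h and -0.22 at 10 h. Pcdhb10, Mir200a and Olfr1090 had mean levels of 3.16, 3.87 and 2.76, below the median gene at 5.20. Crnn at 3.77, A830082N09Rik at 3.93, 4933404K08Rik at 4.10, Gm973 at 4.16 and 4933427D06Rik at 4.62 were also below it. These cosines describe 11 pairs and carry no test.

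Cultures differed widely in the level of Hes1 also without GSI. In DMSO at 4 h the level ran over 2.27 log2 units, and it was set against the mean of the 8 endothelial markers. Over the 7 DMSO samples, Pearson's r was 0.909 for Hes1 (exact permutation p = 0.00774, adjusted p = 0.155) and Spearman's rho was 0.964 (exact permutation p = 0.00278, adjusted p = 0.111). For Nrarp, r was 0.933 (exact permutation p = 0.00694, adjusted 0.155) and rho 0.821 (p = 0.0341, adjusted 0.384). For Hey1, r was 0.791 (exact permutation p = 0.0327, adjusted 0.351) and rho 0.821 (p = 0.0341, adjusted 0.384). Heyl had r of 0.774 (exact permutation p = 0.0526, adjusted 0.351) and Hey2 0.727 (p = 0.0651, adjusted 0.372), with rho of 0.536 for each. Dtx1 had r of 0.166 (exact permutation p = 0.732, adjusted 0.950). Hes5 and Hes6 ran the other way, with r of -0.667 (exact permutation p = 0.101, adjusted 0.477) for Hes5 and -0.753 (exact permutation p = 0.0498, adjusted 0.351) for Hes6, and rho of -0.786 for each (exact permutation p = 0.0480, adjusted 0.384). None of the 40 relations examined (8 genes against 5 marker lists) passed after adjustment. Without the 2 samples farthest from the median, r was 0.686 for Hes1, 0.549 for Nrarp, 0.861 for Hey1, -0.915 for Hes5 and -0.817 for Hes6. By the same cut r was 0.442 for Hey2, -0.158 for Heyl and -0.0116 for Dtx1. The samples also follow the runs, with Hes1 in DMSO at 8.76 in run 3, 8.19 in run 2 and 7.49 in run 1. Within run 3, the 4 samples had the same order in Hes1 and in the endothelial mean, which is too few for a separate r. The part of the endothelial markers and of the runs in these levels was not tested.

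**Figure D4:**
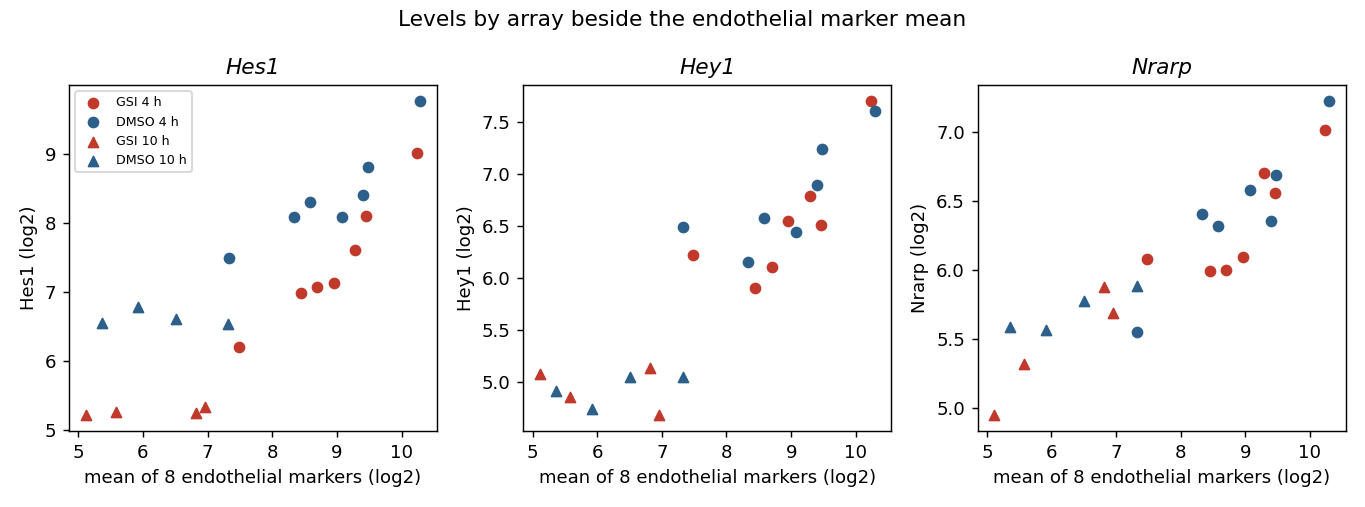
Log2 level of Hes1, Hey1 and Nrarp on each array against the mean log2 level of 8 endothelial markers, with GSI in red, DMSO in blue, circles for 4 h and triangles for 10 h. GSI points for Hes1 lie below DMSO points at like marker levels, and the 10 h arrays lie at lower marker levels than the 4 h arrays.

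Markers of other cells were set beside the fall of Hes1 with GSI. At 4 h the endothelial mean was 8.94 in GSI and 8.93 in DMSO. At 10 h it was 6.12 in GSI and 6.28 in DMSO, and lower in GSI in 3 of 4 pairs. The 10 h means of stromal and hepatocyte markers were lower in GSI in 3 of 4 pairs and that of macrophage markers in 4 of 4. Hes1 was lower in GSI in each 10 h pair, and the marker means were lower in most of them. In pair 1 the endothelial and stromal means were higher in GSI, by 0.31 and 0.33. In pair 3 the hepatocyte mean was higher, by 1.25. The macrophage differences ran from -0.28 to -0.0042. The part of the stromal, hepatocyte and macrophage markers in the fall of Hes1 was not tested. None of the 8 endothelial, 12 stromal, 8 macrophage or 7 hepatocyte markers passed between GSI and DMSO at either time. Neither did the 5 markers listed for the stem cells, of which the SLAM LSK label does not name Cd34 and Procr. The smallest p among all these markers at 10 h was that of Lyve1, an endothelial hyaluronan receptor, at -0.73 (limma adjusted p = 0.0559), followed among endothelial markers by Stab2 at -0.40. The collagen gene Col1a2 was at -1.10 (adjusted p = 0.215) and Col6a2 at -0.39. The macrophage genes Csf1r and C1qc were at -0.53 and -0.40, and the hepatocyte genes Apoa1 and Afp at -0.47 and -0.28. Cd34 was at 0.46 and the sort marker gene Kit at 0.16. With the endothelial mean of each array in the fit, a setting added after the data had been seen, Hes1 was at -0.97 at 4 h (adjusted p = 0.00046) and at -1.38 at 10 h (adjusted p = 0.00032).

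Between 10 h and 4 h the members' levels were also compared, within GSI and within DMSO. As deposited, all genes had a median shift of -0.42 in GSI and -0.41 in DMSO. In GSI 6 of 8 members were lower at 10 h, beside 65.0% of all genes, and in DMSO 6 of 8, beside 58.1% of all genes. Those 6 were Hes1, Hes5, Hey1, Heyl, Nrarp and Dtx1 in both. These counts lie near the background. Hes1 averaged 5.27 at 10 h and 7.44 at 4 h in GSI, a difference of -2.18 (limma adjusted p = 0.00043), and -1.76 beyond the median gene. In DMSO it averaged 6.62 at 10 h and 8.42 at 4 h, a difference of -1.80 (adjusted p = 0.00046) and -1.38 beyond the median gene. Hey1 was lower by a similar amount, -1.60 in GSI (adjusted p = 0.00028) and -1.83 in DMSO (adjusted p = 5.5e-05).

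After quantile normalization of all 22 arrays together, Hes1 and Hey1 were the only members still called lower. Of all genes 17.0% in GSI and 15.2% in DMSO were called lower under this scaling. Called higher were 4226 of 22180 genes in GSI and 4155 in DMSO. Hes1 was then at -1.52 in GSI (limma adjusted p = 0.0120) and at -1.20 in DMSO (adjusted p = 0.0142). Hey1 was at -0.93 in GSI (adjusted p = 0.0249) and at -1.16 in DMSO (adjusted p = 0.0048). Hes6 and Hey2 turned to the other direction and passed, Hes6 at 0.44 in GSI (adjusted p = 0.0231) and 0.42 in DMSO (adjusted p = 0.0159), and Hey2 at 0.32 in GSI (adjusted p = 0.0300) and 0.41 in DMSO (adjusted p = 0.0098). Hes5, Heyl, Nrarp and Dtx1 did not pass under this scaling. Markers of other cells moved the same way as Hes1 and Hey1 as deposited. There 65.0% of all genes in GSI and 58.1% in DMSO were called lower. Of the endothelial markers 8 of 8 were lower at 10 h in both arms, with a median of -2.81 in GSI and -2.74 in DMSO. Lower were also 6 of 7 hepatocyte markers in both arms (medians -2.60 in GSI and -2.65 in DMSO), 12 of 12 stromal markers in GSI and 10 of 12 in DMSO (-1.45 and -1.13), and 7 of 8 macrophage markers in GSI and 6 of 8 in DMSO (-1.65 and -1.09). The 6 of 8 macrophage markers in DMSO lie near the share of all genes. The part of these markers in the lower levels of Hes1 and Hey1 was not tested.

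**Figure D5:**
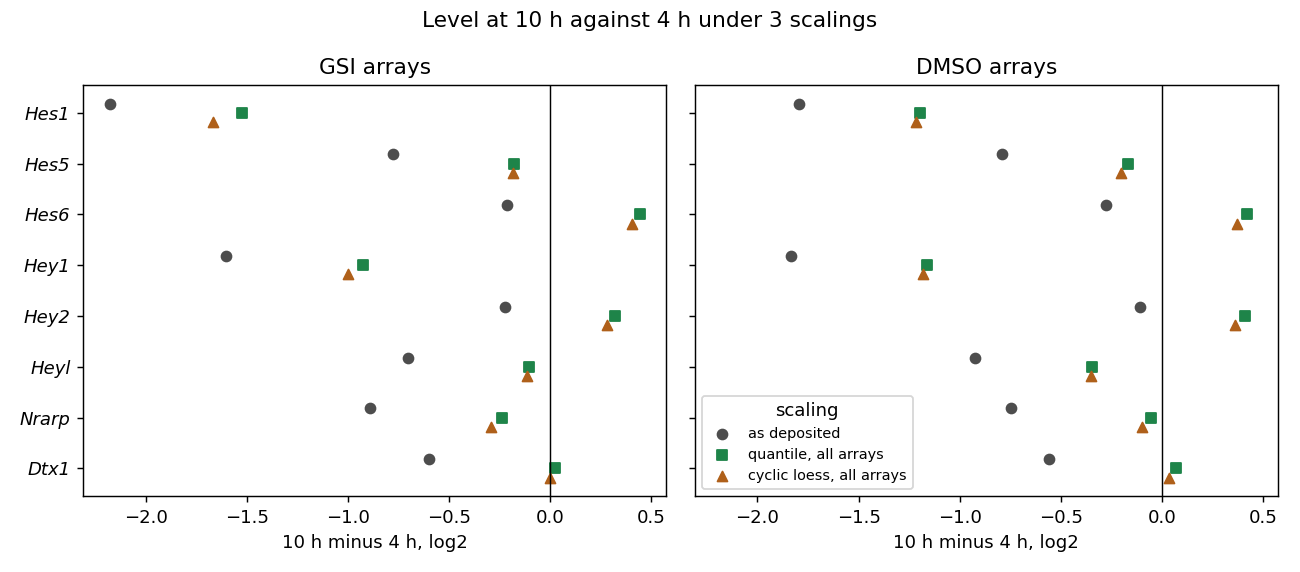
Difference of 10 h minus 4 h on the log2 scale for each gene in GSI arrays (left) and DMSO arrays (right), as deposited (grey circles) and after quantile (green squares) or cyclic loess scaling (brown triangles) of all arrays. Hes1 and Hey1 stay below 0 under all 3 scalings, while Hes6 and Hey2 cross to positive values.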

How the data were processed

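RNA of sorted cells was measured on 22 single-colour arrays. The authors deposited log2 expression values, and the submitters' processing notes name RMA and Partek 6.6. Whether both times were normalized together is not given in the sources used here. Of 41345 probes, 23521 had 1 gene symbol in the platform annotation, 1814 had several and 16010 had none. Probes with 1 symbol were kept, and the probe with the highest mean was used for the 1082 genes with more than 1, which left 22180 genes. No filter on low values was applied.

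Groups came from the sample titles. Tests used limma 3.58.1 under R 4.3.3 (lmFit, eBayes with an intensity trend, 2-sided), with Benjamini-Hochberg adjustment over all genes and a threshold of 0.05. GSI was compared with DMSO in 1 fit to all arrays, with the pair as a fixed block. The pairing comes from the series' design text. Deviations of partners from their group means correlated at 0.223 to 0.872 at 4 h and at 0.213 to 0.449 at 10 h. The DMSO array correlated best with its own GSI partner in 6 of 7 pairs at 4 h and 4 of 4 at 10 h. Times were compared within GSI and within DMSO on 11 arrays each, with no block. No pair of arrays shared more than 48 identical values. The fit of GSI against DMSO was also run on simulated data with 200 changed genes. Those data held no differences between pairs, runs or times, so they cannot test the pairing.

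The members, lists and tests were chosen with earlier results of these data known, although the rule for the members uses none of their values. The genes named are the 8 members, list genes that passed, otherwise the 2 of each list with the smallest p at 10 h, the 5 genes most like and most opposed to Hes1, and the 1 most like each other member. Lists were written from general knowledge, and list genes without a probe of 1 symbol in the tables used were not analysed here. Alternatives changed the block, the trend, the scaling, the probe rule, the filter, the runs and the replicates.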

Additional observations from a re-analysis of the deposited data

Results flagged for a closer look

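Of 48 sets of 4 to 7 values examined for a value far from the rest, 2 held one, and chance gives about 1 in 20. Hes5 in DMSO at 10 h was 5.55 in replicate 4, while the other 3 DMSO samples lay between 3.95 and 4.21. The difference of GSI minus DMSO in Hey1 at 10 h was -0.37 in pair 2 and between 0.09 and 0.16 in the other 3 pairs.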

How the results depend on the processing

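The fall of Hes1 kept its direction under every alternative run, at -1.29 to -0.80 at 4 h (21 of 22 tested alternatives passed), -1.44 to -1.28 at 10 h (20 of 22) and -1.21 to -1.14 over both times (17 of 18). The exceptions were no replicate block, where the values were -0.97 at 4 h, -1.36 at 10 h and -1.16 over both times with 0 members past the threshold, and run 4 alone, at -1.28 with 0 members. Run 1 alone, with no test, gave -1.29. The pair block stems from the design text. Without it the standard errors were larger, at 0.328 at 4 h and 0.435 at 10 h. Run 4 alone kept the block and rested on fewer pairs. So did run 5 alone, which passed at -1.43 (limma adjusted p = 0.0436). The cause of the lost call in run 4 was not tested. Fitted alone, each time still called Hes1, with limma adjusted p of 0.0014 at 4 h and 0.0389 at 10 h. The difference between times was called in 0 of 18 alternatives (-0.45 to -0.33).

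The other 7 members passed in 0 of 300 tested alternatives for GSI at the single times, and differences changed sign in 30 of 307 values. In run 1 alone (1 pair, no test), Nrarp was 0.53, Hes6 -0.24, Dtx1 -0.0702, Hes5 0.0374 and Hey2 -0.0061 at 4 h. At 10 h within runs, Dtx1 was -0.0911, Hes6 -0.0834 and Heyl -0.0280 in run 5, and Hes5 0.56 and Hey1 -0.14 in run 4. Hey1 was -0.0519 after cyclic loess and -0.0106 after quantile normalization, and Hes5 was 0.0774 as the mean of its probes. At 4 h, Hes5 was -0.69 in run 2 (limma adjusted p = 0.0714) and 0.23 in run 3, Hey2 -0.0801 in run 3, and Heyl 0.0930 in run 2. Leaving out 1 pair at a time gave at 10 h -0.31 to 0.41 for Hes5, -0.0087 to 0.14 for Hes6, -0.0526 to 0.12 for Hey1 and -0.0829 to 0.16 for Heyl, and at 4 h -0.18 to 0.0565 for Hes5, -0.0304 to 0.0658 for Hes6 and -0.0449 to 0.0770 for Hey2. The causes were not tested.

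For 10 h against 4 h, quantile normalization gave 0.0236 for Dtx1, 0.44 for Hes6 and 0.32 for Hey2 in GSI, and 0.0688, 0.42 and 0.41 in DMSO. Cyclic loess gave 0.41 for Hes6 and 0.28 for Hey2 in GSI, with 3 members past the threshold, and 0.0356 for Dtx1, 0.37 for Hes6 and 0.36 for Hey2 in DMSO. By that scaling 4077 of 22180 genes were called lower in GSI and 3616 higher. Hes1 passed in 14 of 14 alternatives in either arm.

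No limit for signal above background was at hand, and 4 pairs at 10 h leave wide intervals for the weakly read genes.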
